A study of Mus musculus with 6 samples.

Results

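A set of 9 transcription factor genes that pattern the tubule of the nephron were examined for open chromatin in mouse nephron progenitors: Hnf4a, Hnf4g, Pou3f3, Irx1, Irx2, Irx3, Tfap2b, Sim1 and Sim2. A region of the deposited ATAC-seq table belonged to a gene when its midpoint lay in the gene body or within 50 kb of it, whatever its values. By this rule 20 of the 43523 distinct regions were included, at 7 of the 9 genes. Irx3 and Sim2 had no region. ATAC-seq reads open chromatin through the transposase Tn5, which cuts and tags accessible DNA, and a higher count marks a more accessible region. Itga8-positive progenitors were isolated on magnetic beads from CD1 mice, as E14.5 embryos for 3 libraries and as newborn pups (P0) for another 3. No allele or agent was named for either group, each library came from the pooled kidneys of 1 litter, and bead selection enriches for progenitors without removing all other cells. The comparison sets embryonic progenitors against those still present at birth.

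As background, nephron progenitors turn into epithelium that passes through renal vesicle, comma-shaped and S-shaped stages, and the tubule is divided along its length into proximal, loop and distal segments while it grows. The genes studied here are best known from that later epithelium and not from the progenitor itself. Hnf4a and its relative Hnf4g are nuclear receptors of the proximal tubule, and Hnf4a is required for proximal tubule cells to mature. Pou3f3, also called Brn1, is a POU-domain factor of the loop of Henle and distal tubule. Irx1, Irx2 and Irx3 are Iroquois homeodomain factors of the intermediate part of the early nephron. Tfap2b is an AP-2 factor of the distal convoluted tubule, and Sim1 and Sim2 are related bHLH-PAS factors, of which Sim1 is known from the proximal tubule of the fish kidney.

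Sequence just upstream of an annotated start was available for 6 of the genes (7 windows of 250 bases, Hnf4a having 2 starts) in the RefSeq promoter set for GRCm38.p6, which shares its coordinates with the mm10 build named in the submitters' processing notes. The windows are shown because they split these 6 genes by whether an accessible region covered the start used. Hnf4g, Irx1 and Sim2 had no window, though the region listed as the Hnf4g promoter covered the lower-coordinate end of that gene. Capitals mark CpG dinucleotides, which are counted after the sequences.
Irx2, chr13:72628570-72628819 (plus strand): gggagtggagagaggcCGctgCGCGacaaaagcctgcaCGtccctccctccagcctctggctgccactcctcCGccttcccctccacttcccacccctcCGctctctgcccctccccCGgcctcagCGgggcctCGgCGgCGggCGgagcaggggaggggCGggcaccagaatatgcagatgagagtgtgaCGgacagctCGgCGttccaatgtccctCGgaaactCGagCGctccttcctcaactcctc
Sim1, chr10:50895401-50895650 (plus strand): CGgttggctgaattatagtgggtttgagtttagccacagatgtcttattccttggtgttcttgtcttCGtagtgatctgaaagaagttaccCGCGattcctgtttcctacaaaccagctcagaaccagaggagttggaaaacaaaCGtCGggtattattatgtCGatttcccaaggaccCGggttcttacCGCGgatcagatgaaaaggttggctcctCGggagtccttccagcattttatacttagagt
Tfap2b, chr1:19211804-19212053 (plus strand): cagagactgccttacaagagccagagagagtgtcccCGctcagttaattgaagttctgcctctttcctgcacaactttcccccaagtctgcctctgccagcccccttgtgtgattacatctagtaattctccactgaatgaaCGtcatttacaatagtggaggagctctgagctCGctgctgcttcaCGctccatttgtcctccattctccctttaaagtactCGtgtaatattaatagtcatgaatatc
Hnf4a, upstream start, chr2:163506607-163506856 (plus strand): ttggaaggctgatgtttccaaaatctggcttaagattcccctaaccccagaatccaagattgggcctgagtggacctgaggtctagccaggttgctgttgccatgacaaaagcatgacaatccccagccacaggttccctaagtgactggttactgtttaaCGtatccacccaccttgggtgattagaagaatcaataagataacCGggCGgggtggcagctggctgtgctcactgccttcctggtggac
Hnf4a, internal start, chr2:163546905-163547154 (plus strand): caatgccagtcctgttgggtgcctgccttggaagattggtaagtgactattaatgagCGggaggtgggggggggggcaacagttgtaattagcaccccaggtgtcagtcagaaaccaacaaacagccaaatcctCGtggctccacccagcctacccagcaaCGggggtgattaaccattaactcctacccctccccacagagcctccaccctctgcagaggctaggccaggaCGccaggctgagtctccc
Pou3f3, chr1:42695518-42695767 (plus strand): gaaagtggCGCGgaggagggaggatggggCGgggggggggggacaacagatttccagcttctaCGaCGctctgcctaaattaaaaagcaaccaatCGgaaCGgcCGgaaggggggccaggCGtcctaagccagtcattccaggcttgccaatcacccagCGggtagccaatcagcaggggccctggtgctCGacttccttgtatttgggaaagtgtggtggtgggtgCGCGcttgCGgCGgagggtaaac
Irx3, chr8:91801655-91801904 (minus strand): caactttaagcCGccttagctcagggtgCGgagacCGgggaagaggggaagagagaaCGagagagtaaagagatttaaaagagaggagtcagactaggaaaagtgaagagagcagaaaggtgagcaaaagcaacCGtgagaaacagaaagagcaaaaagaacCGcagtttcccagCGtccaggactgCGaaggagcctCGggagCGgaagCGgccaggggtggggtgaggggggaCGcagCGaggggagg
Only the Irx2 and Sim1 windows overlapped a region. Over all 32851 RefSeq windows of this length, 41.6% did. The Tfap2b window lay 424 bases outside the nearest region, which the table lists as the Tfap2b promoter. This window is inside the gene body (chr1:19208908-19238845), and the promoter region lies nearer to the lower-coordinate end of the gene. The upstream and internal Hnf4a windows lay 24059 and 10543 bases from the nearest region, the Pou3f3 window 22513 bases and the Irx3 window 365353 bases.

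Over all starts, CpG content and overlap with a region went together. Windows overlapping a region held a median of 16 CpG dinucleotides, against 3 in the others, and of the windows with at least 10 CpG 82% overlapped a region. Irx2 and Sim1 held 19 and 11 CpG. Pou3f3 and Irx3, with 15 and 13 CpG, were of the CpG-rich kind and overlapped no region, whereas the upstream and internal Hnf4a windows held 3 and 4 and the Tfap2b window held 5.

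Total counts in regions ran from 6492996 to 12292629 per library, and the 20 regions held from 13 to 473 counts each. Accessibility is given in CPM, the count per 1000000 counts in regions, with library sizes scaled by TMM. Regions near 10 genes of the progenitor state were present at 9 of them, including Six2, Cited1 and Eya1. None of their 30 regions rose at P0 and 3 fell (10%, against 4.73% of all regions called in either direction and 2.94% lower, in the edgeR test described below), at Eya1 (2 regions) and Itga8 (1). Their summed accessibility was 511 to 517 CPM at E14.5 and 436 to 498 CPM at P0. The summed accessibility of regions near stromal markers was 304 to 339 CPM at E14.5 and 310 to 333 CPM at P0, near endothelial markers 452 to 492 and 418 to 457 CPM, near ureteric markers 481 to 533 and 438 to 506 CPM, near immune markers 293 to 372 and 297 to 306 CPM, and near markers of early nephron epithelium 726 to 765 and 643 to 809 CPM. In each of these marker lists other than the progenitor list the ranges of the stages overlapped. By the same test 1 of 27 endothelial regions rose and 1 fell, both at Cdh5 (7.41%), and 1 of 31 regions of early nephron epithelium rose, at Pax8 (3.23%). None of the 18 stromal and 19 immune regions passed edgeR's test, DESeq2's or limma-voom's, while 0 and 2 had an unadjusted edgeR p under 0.05. Of the 30 ureteric regions 0 passed edgeR's or limma-voom's test and 1 DESeq2's, and 5 had an unadjusted edgeR p under 0.05. The part of cell composition in the results below was not tested, and fewer cells with an open region cannot be told apart from a less open region in every cell.

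Of the 20 regions, 3 changed between the stages in edgeR's quasi-likelihood test at a Benjamini-Hochberg adjusted p under 0.05 over all regions. One, near Pou3f3, was more accessible at P0, and the other 2, at Hnf4g and near Sim1, were less accessible. Over all 43523 regions 4.73% passed this test, 1.79% higher and 2.94% lower at P0. This background depended on single libraries: it dropped to 2.53% when E14.5 replicate 1 was left out, to 0.779% when E14.5 replicate 3 was and to 1.09% when P0 replicate 1 was, and in each of these settings 2 of the 20 regions passed. The higher regions were 37.8% of all calls, but 56.6% with E14.5 replicate 2 left out and 15% with P0 replicate 1 left out, so the balance of directions over all regions turned with the library left out. At an unadjusted p under 0.05 there were 4 of the 20, against 18.7% of all regions. The libraries of the stages did not overlap in 5 of the 20 (1 higher, 4 lower at P0), against 24.2% of all regions, so separation as such was about as common here as elsewhere. The median log2 fold change was -0.09, against 0.01 over all regions. None of the 7 regions listed as promoters, some of them for neighbouring genes, changed, where 0.851% of all promoters did. Of the other 13 regions 3 changed, where 6.59% of all regions outside promoters did.

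**Figure D1:**
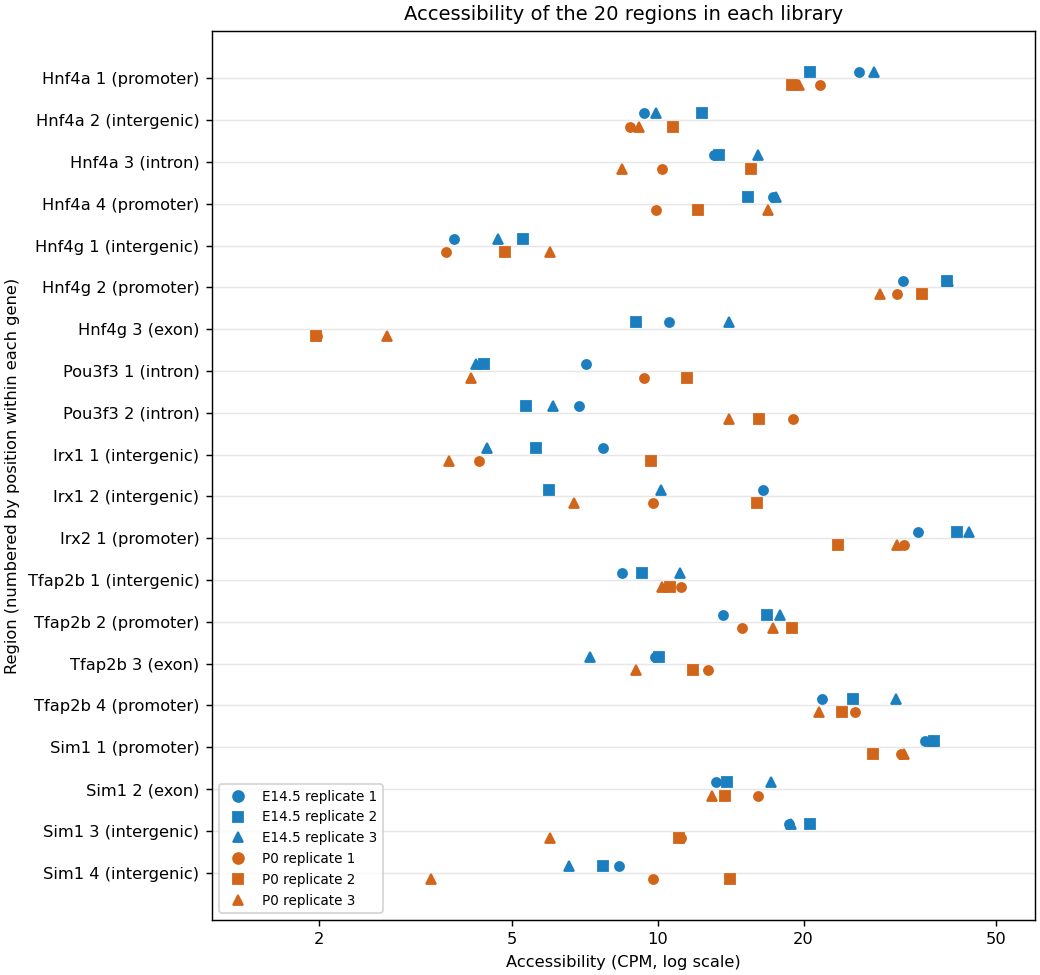
Accessibility in CPM (log axis) of each of the 20 regions, by gene and order along the chromosome, in the 6 libraries (blue, E14.5; orange, P0; symbols, replicates). The third Hnf4g region and the third Sim1 region show all P0 libraries below all E14.5 libraries, and the second Pou3f3 region shows them all above.

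**Figure D2:**
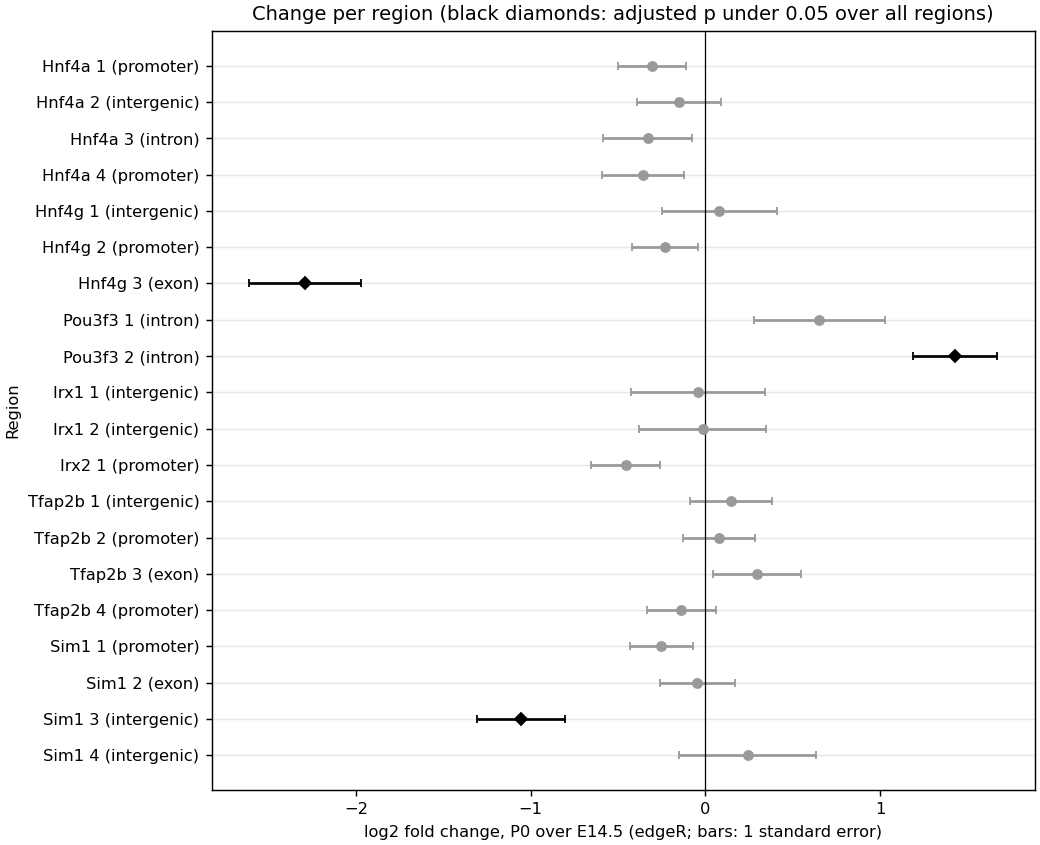
The log2 fold change of each region, P0 over E14.5, from edgeR with bars of 1 standard error. The 3 black diamonds passed the threshold, and the 17 grey points ranged from -0.46 to 0.65.

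The largest change of the family was the fall of a region in the gene body of Hnf4g (chr3:3508030-3659800). The region (chr3:3652703-3653854, 1152 bp) overlapped an exon near the higher-coordinate end of the gene, far from its promoter. Accessibility was 10.6, 9.02 and 14.0 CPM in E14.5 replicates 1, 2 and 3 and 1.98, 1.97 and 2.76 CPM in P0 replicates 1, 2 and 3. Every P0 library was below every E14.5 library, with 19, 13 and 35 counts left at P0. The mean fell from 11.2 ± 2.56 to 2.24 ± 0.456 CPM (SD, n = 3 each), which is 5.01-fold lower, with a log2 fold change of -2.29 (SE 0.32; edgeR adjusted p = 0.00204).

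The promoter of the same gene was not past the threshold. The Hnf4g promoter region (chr3:3507227-3508969) had 32.0, 39.6 and 39.8 CPM at E14.5 and 31.2, 35.1 and 28.7 CPM at P0. The stages overlapped, and the log2 fold change of -0.23 (SE 0.19, edgeR adjusted p = 0.565) was not past the threshold. It was the most open of the 20 regions per kb, at the 88.2nd percentile of all regions. A small intergenic region 5.22 kb from the gene stayed between 3.64 and 6.00 CPM in the 6 libraries (log2 fold change 0.08, SE 0.33). The deposited motif annotation listed a Foxj3 match in the lowered exon region and E2f3, E2f7, Maz and Six2 matches in the promoter region. Matches for Foxj3 were listed in 4.86% of all regions and for Six2, the factor that maintains the progenitor state, in 2.65%.

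Hnf4a (chr2:163506811-163572907), the proximal tubule regulator, had 4 regions in its window, and only 1 of them lay in the gene. That region (chr2:163534720-163536362, in an intron between the annotated starts and also within the antisense gene Hnf4aos) had 13.0, 13.4 and 16.1 CPM at E14.5 and 10.2, 15.6 and 8.45 CPM at P0. The P0 libraries reached both below and into the E14.5 range. Its log2 fold change was -0.33 (SE 0.25, edgeR adjusted p = 0.535). Another 2 of the 4 regions are listed as promoters of neighbours, 2310001K24Rik on the lower side and Ttpal on the higher side. The Ttpal promoter region (chr2:163601745-163603338) had the largest log2 difference of the 4, with 16.7 ± 1.21 CPM at E14.5 and 13.0 ± 3.58 CPM at P0 (SD over 3 libraries) and a log2 fold change of -0.36 (SE 0.23, edgeR adjusted p = 0.450). All 4 log2 fold changes at Hnf4a were below 0, from -0.36 to -0.15, and none passed the threshold.

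A single region rose. This region (chr1:42718280-42719252, 973 bp) lay 18.6 kb beyond the higher-coordinate end of Pou3f3 (chr1:42695768-42700210), the loop and distal factor. The deposited annotation lists it within ENSMUSG00000093436, outside exons, and it overlaps the span of the RefSeq gene Gm46091. Accessibility was 6.88, 5.34 and 6.07 CPM in E14.5 replicates 1, 2 and 3 and 19.1, 16.2 and 14.1 CPM in P0 replicates 1, 2 and 3. The lowest P0 library was above the highest E14.5 library by more than the range within either stage. The mean rose from 6.10 ± 0.769 to 16.4 ± 2.51 CPM (SD, n = 3 each), 2.69-fold, with a log2 fold change of 1.43 (SE 0.24, edgeR adjusted p = 0.00442). The deposited motif annotation listed 1 Maz match there, a motif listed in 21.3% of all regions.

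On the other side of Pou3f3 a weaker region 48.7 kb away (chr1:42646126-42648019, within the gene listed as 2610017I09Rik) had 7.12, 4.38 and 4.204 CPM at E14.5 and 9.37, 11.5 and 4.10 CPM at P0. P0 replicate 3 was as low as the lowest E14.5 libraries, and the log2 fold change of 0.65 (SE 0.38, edgeR adjusted p = 0.383) was not past the threshold. The match annotation there named Sox2, Sox3, Sox4, Sox9 and Sox10, each listed in between 3.36% and 5.02% of all regions. Whether these names share a position was not examined. No region covered the Pou3f3 gene body or its promoter window printed above. The 4 further regions between 50 and 100 kb had log2 fold changes of -0.18, 0.07, -0.11 and 0.67 and did not pass the threshold.

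**Figure D3:**
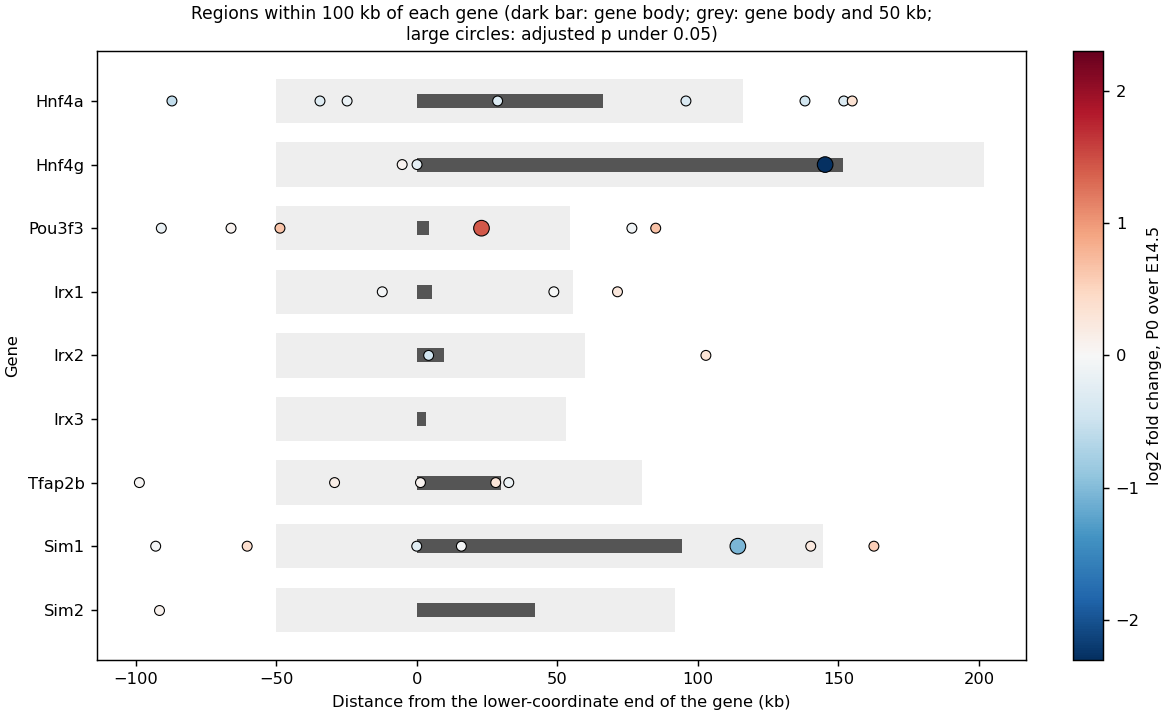
Position of every region within 100 kb of each gene, as the distance in kb from the lower-coordinate end of the gene (dark bar, gene body; grey, gene body and 50 kb; colour, log2 fold change). The large circles are the 3 regions past the threshold, and Irx3 has no region on the map while Sim2 has 1 outside the grey window.

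Sim1 (chr10:50894698-50989156) had 4 regions, and 1 of them fell. This intergenic region lay 19.7 kb beyond the higher-coordinate end of the gene (chr10:51007718-51010075, 2358 bp). It had 18.6, 20.6 and 18.8 CPM in E14.5 replicates 1, 2 and 3 and 11.1, 11.05 and 6.00 CPM in P0 replicates 1, 2 and 3. The E14.5 libraries lay close together, and all P0 libraries were lower, replicate 3 the most. The mean fell from 19.3 ± 1.08 to 9.40 ± 2.94 CPM (SD, n = 3 each), 2.06-fold, with a log2 fold change of -1.06 (SE 0.25, edgeR adjusted p = 0.0258). The call was lost without E14.5 replicate 1, E14.5 replicate 3, P0 replicate 1 or P0 replicate 3 (edgeR adjusted p = 0.0673, 0.115, 0.0611 and 0.0559), and over all 13 other settings the log2 fold change was between -1.23 and -0.82. In the authors' deposited table this region was classed as closing with an adjusted p of 0.0776, while the Hnf4g and Pou3f3 regions had adjusted p-values of 0.0387 and 0.0331 there.

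The lowered Sim1 region carried more listed motif matches than any other region at Sim1: 4 for Maz, 3 for Sall1, and 1 each for Foxc2, Meis1 and Pax2. Pax2, a paired-box factor needed for nephron formation, had a match in only 0.448% of all regions, Foxc2 in 1.46%, Meis1 in 4.49% and Sall1 in 11.8%. The Sim1 promoter region (chr10:50893672-50895654), which overlaps the window printed above, had 35.6, 37.2 and 36.9 CPM at E14.5 and 31.9, 27.8 and 32.3 CPM at P0. All P0 libraries were below all E14.5 libraries there too, but by less (log2 fold change -0.25, SE 0.18, edgeR adjusted p = 0.501). The exon region of Sim1 (log2 fold change -0.05) and the intergenic region 45.7 kb from it (0.24) overlapped between the stages.

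The Iroquois genes differed in what was open. Irx2 (chr13:72624430-72634196) had 1 region, its promoter (chr13:72627638-72629609), with 34.5, 41.4 and 44.0 CPM at E14.5 and 32.3, 23.6 and 31.3 CPM at P0. It was the region with the highest mean CPM of the 20. Every P0 library was below every E14.5 library, but the log2 fold change of -0.46 (SE 0.20) had an edgeR adjusted p of 0.226 and an unadjusted p of 0.0365, so the difference was not past the threshold. Irx1 (chr13:71958232-71963723) had no region over its gene body and 2 intergenic ones. The nearer, 12.3 kb away (chr13:71945146-71946716), had 7.71, 5.61 and 4.44 CPM at E14.5 and 4.27, 9.69 and 3.71 CPM at P0, with a log2 fold change of -0.04 (SE 0.38, edgeR adjusted p = 0.971), whose sign turned with total-count scaling and without E14.5 replicate 1, P0 replicate 1 or P0 replicate 3. The farther, 43.3 kb away, had 16.5, 5.96 and 10.2 CPM at E14.5 and 9.79, 16.04 and 6.71 CPM at P0.

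In both Irx1 regions E14.5 replicate 1 and P0 replicate 2 were the highest libraries of their stages. The same libraries were highest in the weak Pou3f3 region and in the far Sim1 region, and these 4 were the only members among the 5% of regions with the lowest CPM per kb. None of the other 16 members showed this. In that lowest 5% of the table, E14.5 replicate 1 and P0 replicate 2 were both highest in 56.2% of 2176 regions, against 11% of the remaining regions. The part of this library pattern in the values of the 4 members was not tested. The nearer Irx1 region also held 18 listed motif matches, 10 for Bach2 and 8 for Bach1, motifs listed in 1.73% and 0.903% of all regions. Match positions were not compared, so the same stretch may be listed under both names.

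No region lay within 50 kb of Irx3 (chr8:91798511-91801654) or of Sim2 (chr16:94085104-94127032). Irx3 stood in a wide gap: the nearest regions were 384.0 kb to the lower side, within an intron, and 366.2 kb to the higher side, at 7.36 and 7.45 CPM at E14.5 and 7.89 and 8.66 CPM at P0. Sim2 had its nearest regions at 91.7 and 100.7 kb, with log2 fold changes of 0.10 and 0.66 that did not pass the threshold. Among all 21896 protein-coding genes of RefSeq 11.7% had no region by the same rule, and the median gene had 3. At the edge of the window, the members farthest out lay 48.7 kb from Pou3f3, 45.7 kb from Sim1 and 43.3 kb from Irx1, with log2 fold changes of 0.65, 0.24 and -0.02. The nearest regions beyond it lay 60.4 kb from Sim1, 65.9 kb from Irx1 and 66.1 kb from Pou3f3, with 0.38, 0.26 and 0.07. An absent region means only that no interval of the deposited table lay there, not that the DNA was closed in every cell.

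Tfap2b (chr1:19208908-19238845), the distal convoluted tubule factor, had 4 regions and none of them changed. Its promoter region (chr1:19209024-19211380) had 13.6, 16.8 and 17.9 CPM at E14.5 and 14.9, 18.9 and 17.3 CPM at P0, a log2 fold change of 0.08 (SE 0.21, edgeR adjusted p = 0.891) that turned below 0 without E14.5 replicate 1 or P0 replicate 2. Per kb it was a weak promoter, at the 8.89th percentile of all regions listed as promoters, whereas the Hnf4g, Irx2 and Sim1 promoter regions stood at the 71.8th, 66.5th and 65.1st. The exon region near the other end of the gene (chr1:19236330-19237607) had 9.85, 10.1 and 7.24 CPM at E14.5 and 12.7, 11.8 and 8.999 CPM at P0 (log2 fold change 0.29, SE 0.25, edgeR adjusted p = 0.587). The region 2.76 kb beyond the gene, listed as a promoter of another gene, ran from 21.5 to 31.1 CPM in the 6 libraries and held matches for Sall1, Sall4, Meis1, Foxj3 and Maz. In all 4 Tfap2b regions the stages overlapped.

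When the counts of a gene's regions were summed, no gene passed edgeR's test over all 41554 RefSeq genes with a region in their window, of which 0.489% passed. Pou3f3 came nearest, with sums of 14.0, 9.72 and 10.3 CPM at E14.5 and 28.4, 27.7 and 18.2 CPM at P0. All P0 sums were above all E14.5 sums (log2 fold change 1.12, SE 0.24, edgeR adjusted p = 0.0532). The call depended on the setting. The edgeR adjusted p was 0.0206 with total-count scaling, 0.0207 with the replicate number as a block and 0.00621 without P0 replicate 3. With DESeq2's Wald test it was 0.00337 and with limma-voom 0.0857. Over all settings the adjusted p ran from 0.00337 to 0.357. By DESeq2 1 gene passed and by limma-voom none. At an unadjusted p under 0.05 there were 4 of the 7 genes (Hnf4a, Hnf4g, Pou3f3 and Irx2), against 13.1% of all gene windows.

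The sums of 5 of the 7 genes did not overlap between the stages, against 19% of all gene windows: Pou3f3 was higher at P0 and Hnf4a, Hnf4g, Irx2 and Sim1 were lower. At Hnf4a the sums were 65.7, 61.7 and 71.5 CPM at E14.5 and 50.5, 57.4 and 54.1 CPM at P0 (log2 fold change -0.30, SE 0.14, edgeR adjusted p = 0.381). At Hnf4g they were 46.4, 53.9 and 58.5 CPM and then 36.9, 41.9 and 37.5 CPM (log2 fold change -0.45, SE 0.15, edgeR adjusted p = 0.212). For both receptors every P0 sum was below every E14.5 sum, and neither difference was past the threshold. Sim1 went from 78.2 ± 2.16 to 63.4 ± 7.70 CPM (SD, n = 3 each; edgeR adjusted p = 0.387), and Irx2 has the values of its promoter. Tfap2b, at 60.8 ± 6.79 and 62.5 ± 3.96 CPM, and Irx1, at 16.8 ± 6.60 and 16.7 ± 7.997 CPM, overlapped between the stages (SD, n = 3 each).

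**Figure D4:**
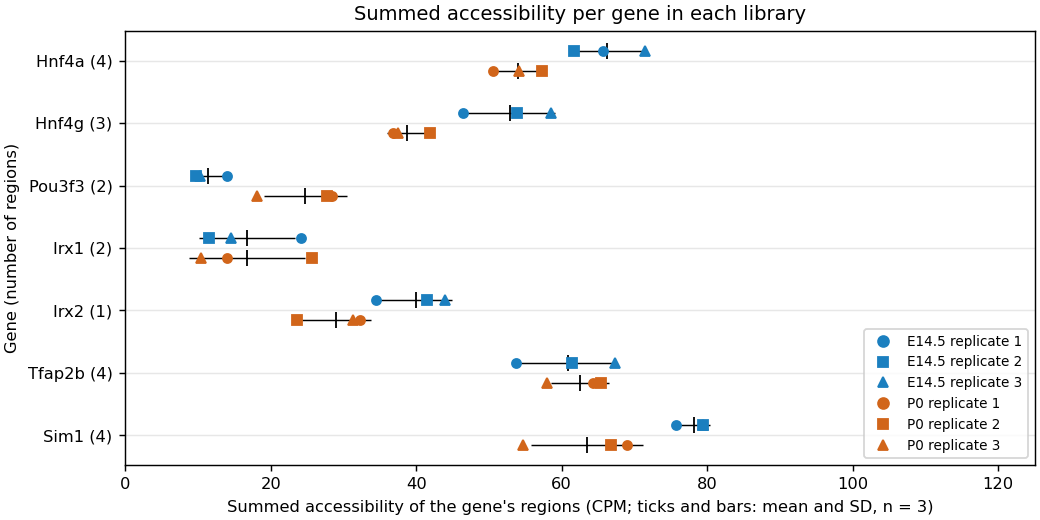
Summed accessibility in CPM of the regions of each of the 7 genes in the 6 libraries, with mean and SD per stage. At Pou3f3 all P0 libraries (18.2 to 28.4 CPM) lie above all E14.5 libraries (9.72 to 14.0 CPM), while at Hnf4a, Hnf4g, Irx2 and Sim1 they lie below. The Hnf4a sum includes the promoter regions of 2310001K24Rik and Ttpal.

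Other genes around tubule segmentation were read by the same 50 kb rule. Of 16 partner genes, among them the early segmentation factors Lhx1 and Pax8 and the remaining Iroquois genes, 14 had 62 regions, of which 3 rose at P0 and none fell (4.84%, median log2 fold change 0.10). The 3 were at Mecom, a zinc finger factor of the distal nephron, and at Pax8, a paired-box factor of the early nephron. The Mecom intron region (chr3:30475065-30476446) rose from 10.7 ± 4.74 CPM at E14.5 to 27.2 ± 1.33 CPM at P0 (SD over 3 libraries; log2 difference 1.33, SE 0.26, edgeR adjusted p = 0.0108), and a Mecom region listed as a promoter had a log2 fold change of 1.25 (edgeR adjusted p = 0.0441). The intergenic region near Pax8 (chr2:24416364-24418243) had a log2 fold change of 0.98 (edgeR adjusted p = 0.0127). It is the same region that rose in the list of early nephron epithelium, as Pax8 is in both lists. Irx4 and Pax2 had no region, and none at Irx5, Irx6 or Lhx1 changed.

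Of the regions near 12 genes of the proximal tubule, 65 in number, 2 rose and 2 fell (6.15%, median log2 fold change -0.05). A region near Cdh6, a cadherin of the early proximal precursor, rose from 3.87 ± 0.542 CPM to 11.1 ± 0.909 CPM (SD over 3 libraries), a log2 fold change of 1.53 (SE 0.28, edgeR adjusted p = 0.00653). One at Cubn, an endocytic receptor, had a log2 fold change of 0.76 (edgeR adjusted p = 0.0450). The 2 that fell were both near Slc4a4, a bicarbonate transporter, with log2 fold changes of -1.53 and -1.02 (edgeR adjusted p = 0.00714 and 0.0169). Near 12 genes of the loop and distal tubule 1 of 42 regions rose and none fell (2.38%, median 0.01). It lay in an intron at Trpm6, a magnesium channel of the distal convoluted tubule, and rose from 16.4 ± 4.26 CPM to 36.1 ± 3.15 CPM (SD over 3 libraries), a log2 fold change of 1.14 (SE 0.21, edgeR adjusted p = 0.00820). The shares called in these lists are to be read against the 4.73% of all regions.

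The Hnf4g and Pou3f3 regions passed the threshold in all 13 other settings of scaling, test, filter, design and left-out library, with adjusted p-values from 1.11e-07 to 0.0275 and from 4.31e-05 to 0.0456. The Sim1 region passed in 9 of the 13.

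**Figure D5:**
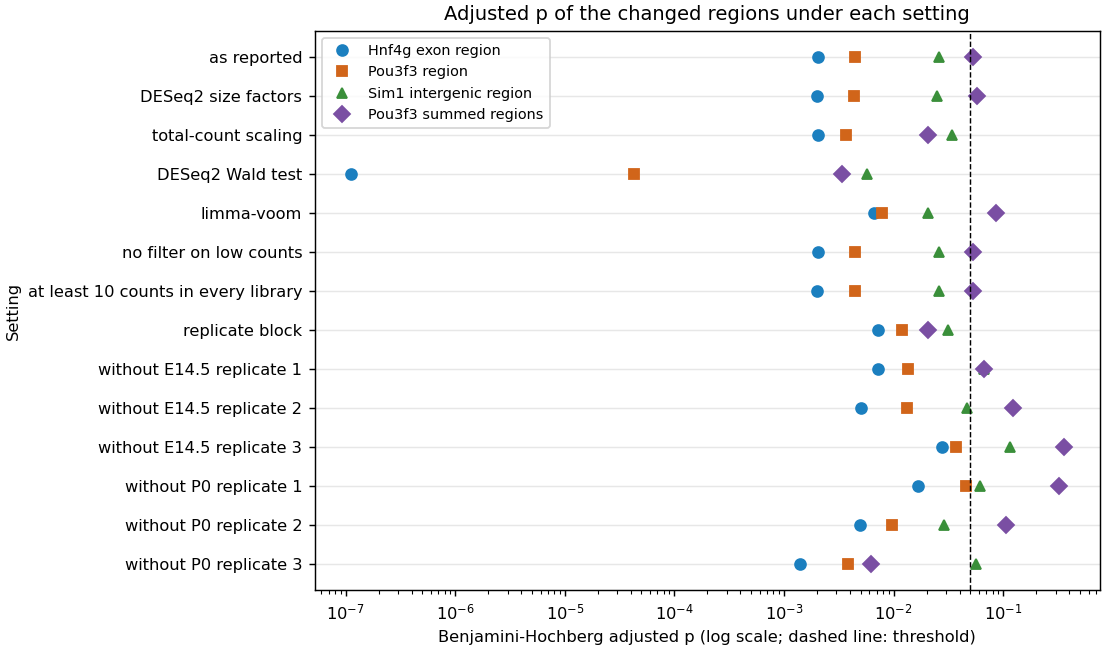
Benjamini-Hochberg adjusted p (log axis) of the 3 changed regions and of the summed Pou3f3 regions under the reported setting and 13 others, with the threshold as a dashed line. The Hnf4g and Pou3f3 regions stay left of the line throughout, and the Sim1 region crosses it in 4 settings, each without 1 library.

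By position the 20 regions comprised 7 promoters, 3 exon regions, 3 intron regions and 7 intergenic regions. The promoters are listed for Hnf4g, Irx2, Tfap2b and Sim1 and for the neighbouring genes 2310001K24Rik, Ttpal and ENSMUSG00000100538. Hnf4a, Pou3f3 and Irx1 had no listed promoter of their own. The median level of the promoters was 13.1 CPM per kb, against 12.8 over all promoters, and that of the intergenic members 6.09 CPM per kb, against 8.01 over all intergenic regions. An overlap with a FANTOM enhancer was listed for 6 of the 20, at Hnf4a (3 regions), Irx2, Tfap2b and Sim1, against 9.65% of all regions. Of these 6 all but the Hnf4a intron region are listed as promoters, those near Hnf4a being of 2310001K24Rik and Ttpal. The share over all promoters was not computed, so the 9.65% is not a like comparison. No member overlapped a tested VISTA element. None of the 3 changed regions was among the 6. Forkhead matches of any name were listed in 6 of the 20 and Maz matches in 6, against 21% and 21.3% of all regions.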

How the data were processed

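Chromatin accessibility was measured in 6 libraries, grouped by source name, and count columns were matched to libraries by title. Per the file headers, the deposited table gives whole-number counts per region and library. It also holds the authors' own log2 fold change, score, p-value and adjusted p-value, used only where named. The build mm10 comes from the submitters' processing notes, and the aligner, peak caller, counting rule, duplicate removal and Tn5 shift are not given in the sources used here, so their effect was not assessed. Of 45489 rows, 1966 repeated a region and were dropped. No read depth outside regions was used.

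All 43523 regions, and the sums over 41554 RefSeq gene windows (GRCm38.p6), were fitted with edgeR 4.0.16 in R 4.3.3 (TMM, filterByExpr, which removed 0 regions, quasi-likelihood F test, stage as the only term) and adjusted by Benjamini-Hochberg. Neighbouring windows share regions. Standard errors are the size of the log2 fold change over the root of F. The fit was tested on simulated data. DESeq2 1.42.0, limma 3.58.1 (voom), other scalings, filters, windows, thresholds, a replicate block and left-out libraries were alternatives. Named regions were those past the threshold, each gene's promoter region and each gene's largest change, and in the other lists each gene with a region past the threshold. Members, lists and rules were chosen with earlier results of these data known. Some genes of the partner and ureteric lists are not reported here. Libraries of a stage are separate litters, and their number limits the precision. Python 3.11.15, pandas 2.3.3 and matplotlib 3.10.9 made tables and figures.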

Additional observations from a re-analysis of the deposited data

How the results depend on the processing

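The 3 changed regions were called again with DESeq2 size factors, total-count scaling, DESeq2's Wald test, limma-voom, other filters, a 100 kb window and any overlap with the window. With a 10 kb window 1 was left (0 higher, 1 lower at P0), since the Pou3f3 and Sim1 regions then fall outside. At a threshold of 0.01, 1 of the 2 lower regions remained past it. Leaving out each library gave 1 to 2 lower regions. Over all regions 2059 were called, and 339 to 2982 when each library was left out (the lowest without E14.5 replicate 3, the highest without E14.5 replicate 2). For the summed regions, 1 gene (Pou3f3, higher at P0) passed in place of 0 with total-count scaling, DESeq2's Wald test, the replicate block and a threshold of 0.1, and 0 to 1 when each library was left out; the cause was not tested. Replicate numbers did not pair the libraries (correlations of same-numbered deviations across regions of 0.067, -0.143 and 0.074). The replicate block gave the Pou3f3 sum an edgeR adjusted p of 0.0207 and changed no other call among the member regions and gene sums. Over all regions it gave 1834 calls in place of 2059. Signs near 0 reversed, and the cause was not tested: the nearer Irx1 region to 0.0168 and the Irx1 sum to 0.0474 (log2) with total-count scaling. When libraries were left out, these ranged from -0.569 to 0.193 and from -0.454 to 0.339, the Tfap2b promoter region from -0.0281 to 0.155 (one value was -0.000891) and the Tfap2b sum from -0.0423 to 0.116. At the Hnf4g exon region the 13 to 35 counts at P0 limit the precision of the fold change. DESeq2's Wald test called 6.38% of all regions, against 4.73% with edgeR. It called 5 of the partner regions in place of 3, 6 proximal tubule regions in place of 4 and 3 loop and distal regions in place of 1. Of the marker regions it called 4 progenitor in place of 3, 4 endothelial in place of 2 and 1 ureteric in place of 0. With limma-voom 4.38% of all regions were called, and 2 loop and distal regions.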

Other observations

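Regions of low signal had a library order of their own. The 5% of regions with the lowest CPM per kb held 1.34% to 1.86% of the counts of an E14.5 library. At P0 the share was 1.82% in replicate 1, 2.81% in replicate 2 and 1.2% in replicate 3. Of these 2176 regions 18 (0.827%) were called, against 4.73% of all regions.

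The enhancer-target columns of the deposited table name genes for 18925 distinct regions, but of 183177 gene names matched to RefSeq only 998 (0.545%) lay on the chromosome of their region. At the 8 member regions with such names 0 of 81 did. These columns were not used to assign targets here.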
